A study of Homo sapiens with 2 samples.

Results

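Transcription factors that act in myeloid differentiation were followed across the cells of blood-generating heart-forming organoids (BG-HFOs). The set held 9 genes, *SPI1*, *CEBPA*, *CEBPB*, *CEBPD*, *CEBPE*, *GFI1*, *IRF8*, *KLF4* and *MAF*, chosen by symbol among the 36601 genes of the count tables, and each symbol matched 1 row in both organoids. BG-HFOs are three-dimensional cultures of human pluripotent stem cells in Matrigel, in which WNT signalling is first raised and then lowered and haemato-endothelial growth factors and cytokines are added, so that heart, vessels and blood form together. Cells of 2 BG-HFOs were sequenced on day 14 in a droplet assay of transcript ends, 1 library for each organoid, named 32.7 and 33.10. Both organoids had the same treatment, so cells were compared with cells and no condition with another, and the organoid was the replicate (n = 2).

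Blood cells of the myeloid lineages arise through a small number of factors used in different doses and combinations. *SPI1* encodes PU.1, an ETS factor needed from the earliest myeloid step onwards, and the C/EBP proteins form a family of leucine zipper factors in which C/EBPα opens the granulocyte and monocyte path and C/EBPε serves the late, granule-forming stages of neutrophils and eosinophils. GFI1 is a zinc finger protein that represses transcription and acts in granulocyte development. IRF8 and KLF4 are known for the monocyte side, and MAF is a leucine zipper factor of mature tissue macrophages.

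The libraries held 16866 and 19948 barcodes with 191152562 and 233818881 unique molecular identifiers (UMIs, 1 for each captured transcript), and 16792 and 19893 cells remained after the filter on genes and mitochondrial counts. The same barcode sequence occurred in both libraries for 100 barcodes. Cells were assigned by raw UMIs of a gene outside the set. *C1QA*+ cells had at least 3 UMIs of this complement gene (434 cells in organoid 32.7 and 187 in 33.10), *MPO*+ cells at least 3 of myeloperoxidase (382 and 62) and *EPX*+ cells at least 2 of eosinophil peroxidase (77 and 56). *LYZ*+ *C1QA*- cells had at least 5 UMIs of lysozyme and none of *C1QA* (126 and 81). *MYB*+ cells had at least 2 of this progenitor factor and fewer than 5 of lysozyme (56 and 142). Both were drawn only from cells below the thresholds for *C1QA*, *MPO*, *EPX* and all other lineages gated. *MPO*+ and *EPX*+ cells with *LYZ* or *MYB* are therefore not in them. Cells past the thresholds for *PF4* (megakaryocyte), *CDH5* (endothelial), *TNNT2* (cardiomyocyte), *PRRX1* (mesenchymal) and *AFP* (endoderm) gave the other lineages reported here. *AFP*+ cells numbered 144 and 15 and entered no test. Cells past several thresholds were left out (1526 and 1897), except for 30 *EPX*+ *MPO*+ cells of organoid 32.7 that were kept with *EPX*+ cells. Of 662 and 129 cells past the *MPO* threshold, 280 and 67 were thus not in its gate, and 155 and 44 were also past that of *TNNT2*. For *C1QA* 187 of 621 and 69 of 256 cells were not in the gate, and for *EPX* 44 of 121 and 22 of 78. Median depth ranged from 6933.5 to 23348 UMIs per cell in the 5 myeloid and progenitor groups.

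Levels are given as CPM, the UMIs that a gene has for every 1000000 UMIs when the cells of 1 gate and organoid are added up. In these sums, fewer cells that express a gene and fewer transcripts in each cell cannot be told apart.

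The gates carried the markers of their names to different degrees. All 8 macrophage markers were found in *C1QA*+ cells, where they summed to 4163 CPM in organoid 32.7 and 3252 in 33.10. In *MPO*+ cells they summed to 147 and 156 CPM and in *EPX*+ cells to 43.5 and 64.8. All 6 eosinophil markers were found in *EPX*+ cells, at 48949 and 56937 CPM in sum, mostly the granule genes *PRG2* and *CLC*. *MPO*+ cells held all 6 markers of the neutrophil lineage (7583 and 6649 CPM in sum). Most of this sum was *LYZ*, also the gene of another gate, at 4729 and 3831 CPM. *PRTN3*, the proteinase 3 gene, was at 2213 and 2267 CPM. In the same cells *ELANE*, the neutrophil elastase gene, was only at 44.5 and 7.80 CPM and *CTSG* at 10.2 and 4.68. The monocyte list was at 21395 and 19226 CPM in sum there, against 7916 and 7289 in *C1QA*+ cells. In *LYZ*+ *C1QA*- cells it was at 20383 CPM in organoid 32.7, near the *MPO*+ cells, and at 7619 in 33.10. The neutrophil list was at 4532 and 1408 CPM in *LYZ*+ *C1QA*- cells, of which *LYZ* made up 4404 and 1292.5. Most of the sum in *MPO*+ cells was *S100A8* and *S100A9* (means of 8399 and 10880 CPM). *S100A12* too was highest there by its mean, but *CD14* and *FCER1G* were highest in *C1QA*+ cells and *FCN1* in *LYZ*+ *C1QA*- cells. *MPO*+ cells are therefore called by their gate and not by a cell type. *LYZ*+ *C1QA*- cells had *PRG2* at 780 and 2854 CPM and *MYB*+ cells at 2015 and 2685, so both gates also carried an eosinophil transcript, and its part in the comparisons with these gates was not tested.

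*SPI1* (ENSG00000066336, chromosome 11, 47354860 to 47378547 of GRCh38, 5 exons) had its highest level in *C1QA*+ cells. It stood at 377 CPM in organoid 32.7 and 348 in 33.10 there, at 248 and 261 in *MPO*+ cells and at 278 and 196 in *LYZ*+ *C1QA*- cells. *EPX*+ cells followed with 199.7 and 133 CPM and *MYB*+ cells with 120.0 and 105. *C1QA*+ cells were above all other gates in both organoids, the ranges of *LYZ*+ *C1QA*- cells overlapped those of *MPO*+ and *EPX*+ cells, and *MYB*+ cells were below these. Outside the myeloid gates *SPI1* was at 30.6 and 26.7 CPM in *PF4*+ cells, but at 1.35 to 9.03 CPM in *CDH5*+, *TNNT2*+ and *PRRX1*+ cells. For each 100 UMIs of *S100A9*, an abundant myeloid transcript, *C1QA*+ cells had 9.24 and 9.03 UMIs of *SPI1* and *MPO*+ cells 2.21 and 2.47. *PF4*+ cells had 43.5 and 120.4, and *CDH5*+, *TNNT2*+ and *PRRX1*+ cells had 7.73 to 11.8 in organoid 32.7 and 20.9 to 40.8 in 33.10. The part of free RNA in the low *SPI1* counts of these gates was not tested.

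*CEBPA* (ENSG00000245848, chromosome 19, 33299934 to 33302534, 1 exon) differed little in level between the myeloid gates. By their means, *LYZ*+ *C1QA*- cells came first with 30.4 and 39.6 CPM, then *MPO*+ cells with 34.7 and 26.5 and *MYB*+ cells with 29.5 and 23.3. *EPX*+ cells had 20.0 and 26.7 CPM and *C1QA*+ cells 23.2 and 16.8. Each gate overlapped the next in this order, and in *PF4*+, *CDH5*+, *TNNT2*+ and *PRRX1*+ cells the level was at most 2.11 CPM. The highest value of any gate was that of *AFP*+ cells, at 59.9 and 71.0 CPM (98 and 17 UMIs). C/EBPα is also a known factor of liver cells, and these endoderm cells had transcripts of the liver genes *APOA1*, *APOA2* and *TTR* at 2879 CPM or more in both organoids.

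*CEBPB* (ENSG00000172216, chromosome 20, 50190830 to 50192668, 1 exon), a factor of inflammatory gene expression and of granulocyte output under demand, was at 458 and 395 CPM in *C1QA*+ cells. It was at 271 and 267 CPM in *MPO*+ cells and at 353 and 199 in *LYZ*+ *C1QA*- cells, 2 gates whose ranges overlapped. *EPX*+ cells were lower, with 129 and 147 CPM, and *MYB*+ cells lower again, with 108 and 89.4. *CEBPB* was well above the floor in every gate shown. It had 36.1 to 71.0 CPM in the *PF4*+, *CDH5*+, *PRRX1*+ and *AFP*+ gates and 42.4 and 29.02 in *TNNT2*+ cells.

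*CEBPD* (ENSG00000221869, chromosome 8, 47736913 to 47738164, 1 exon), a C/EBP gene that responds quickly to cytokines, did not separate *C1QA*+, *MPO*+, *LYZ*+ *C1QA*- and *EPX*+ cells. Levels were 176 and 111 CPM in *C1QA*+ cells, 158 and 108 in *MPO*+ cells and 155 and 77.0 in *LYZ*+ *C1QA*- cells. *EPX*+ cells had 113 and 91.6 CPM, and the ranges of all 4 gates overlapped. Mesenchymal *PRRX1*+ cells, with 107 and 81.1 CPM, overlapped the last 2 of them. *MYB*+ cells lay below all of these gates, with 53.8 CPM in organoid 32.7 and 33.7 in 33.10. Organoid 32.7 was higher than 33.10 in each of the 10 gates shown. *TNNT2*+ cells had 74.3 and 54.4 CPM, and *CDH5*+ cells the lowest mean, with 15.2 and 9.42.

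*CEBPE* (ENSG00000092067, chromosome 14, 23117036 to 23120256, 2 exons) formed the steepest order of the C/EBP genes. *EPX*+ cells had 219.7 and 160.5 CPM, *MPO*+ cells 57.9 and 53.1 and *LYZ*+ *C1QA*- cells 14.9 and 16.5. *MYB*+ cells followed with 5.89 and 6.02 CPM, and *C1QA*+ cells had 1.71 and 0.580 (13 and 2 UMIs). No neighbours in this order overlapped. In other gates at most 1.03 CPM was found.

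*GFI1* (ENSG00000162676, chromosome 1, 92473043 to 92486925, 7 exons) was found in the same gates as *CEBPE* but differed between the organoids. *EPX*+ cells had 35.0 CPM in organoid 32.7 and 6.17 in 33.10 (49 and 6 UMIs), and *MPO*+ cells 21.6 and 10.1 (136 and 13 UMIs), so the order of these gates was reversed between the organoids. *LYZ*+ *C1QA*- cells had 7 and 2 UMIs, *MYB*+ cells 2 and 1, and *C1QA*+ cells 1 and 0.

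Promoter windows of *CEBPE*, *GFI1* and *KLF4* are shown because *CEBPE* and *GFI1* were highest in the peroxidase gates and *KLF4* had no UMI in *EPX*+ cells. Letters of a C/EBP or PU.1 motif lie in each. They come from RefSeq (GRCh38.p14), run 5′ to 3′ along the gene from 250 bases before the start site to 50 after it, and have the motif letters in capitals. The *CEBPE* window (chr14:23119206-23119505, minus strand) and the *KLF4* window (chr9:107489720-107490019, minus strand) hold GAGGAA, the core bound by PU.1, and 1 of the 3 *GFI1* windows (chr1:92486050-92486349, minus strand) holds the C/EBP letters TTGCGCAA.
CEBPE: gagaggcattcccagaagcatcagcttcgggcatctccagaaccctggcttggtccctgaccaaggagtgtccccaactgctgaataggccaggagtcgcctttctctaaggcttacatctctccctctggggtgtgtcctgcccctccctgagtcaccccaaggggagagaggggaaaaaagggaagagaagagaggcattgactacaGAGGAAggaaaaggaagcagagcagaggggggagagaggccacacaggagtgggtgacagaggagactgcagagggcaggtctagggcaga
GFI1: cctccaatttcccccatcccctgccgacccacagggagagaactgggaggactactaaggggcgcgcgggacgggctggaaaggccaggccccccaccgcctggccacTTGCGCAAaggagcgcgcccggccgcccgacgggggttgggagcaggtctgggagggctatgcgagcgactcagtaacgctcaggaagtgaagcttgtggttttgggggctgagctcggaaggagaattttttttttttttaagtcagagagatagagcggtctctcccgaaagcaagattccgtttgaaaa
KLF4: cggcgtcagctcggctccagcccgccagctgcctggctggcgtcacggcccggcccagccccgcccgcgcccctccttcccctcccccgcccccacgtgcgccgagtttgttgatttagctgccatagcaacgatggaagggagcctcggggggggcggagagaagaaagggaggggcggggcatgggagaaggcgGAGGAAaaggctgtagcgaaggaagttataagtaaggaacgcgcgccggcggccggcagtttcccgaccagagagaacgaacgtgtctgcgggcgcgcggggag

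Both strands were searched for 4 motifs in the 11 windows of the 7 members that matched an entry, and *SPI1* and *CEBPD* were not matched. Both *IRF8* windows (chr16:85902580-85902879 and chr16:85902765-85903064, plus strand) lie inside the gene, which begins at 85899116. The *CEBPE* and *KLF4* windows and both *GFI1* windows with matched letters also lie inside their genes. On the minus strand these genes begin at 23120256 (*CEBPE*), 107490482 (*KLF4*) and 92486925 (*GFI1*). For *IRF8*, *CEBPE* and *KLF4* the region before the beginning of the gene was not searched. GAGGAA was found in 3 windows (27.9% of all 35116 promoters hold it), the C/EBP letters TTGCNNAA in 1 window (10.5% of all), and the composite ETS-IRF motif, which is GGAA and GAAA with any 2 bases between them (2.82% of all), and the KLF letters CCACACCC (3.28% of all) in 0 windows. In the windows shown, the matched letters lie 41 to 36 bases before the start site of the RefSeq entry in *CEBPE*. They lie 54 to 49 bases before it in *KLF4* and 142 to 135 in *GFI1*. The remaining GAGGAA lies 30 to 25 bases before the start site in another *GFI1* window (chr1:92483765-92484064, minus strand), which is not shown. These matches describe the letters only.

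*IRF8* (ENSG00000140968, chromosome 16, 85899116 to 85922606, 9 exons) was at 65.1 and 61.2 CPM in *C1QA*+ cells. *LYZ*+ *C1QA*- cells had 19.4 and 12.2 CPM and *MPO*+ cells 14.0 and 10.9, with overlapping ranges below those of *C1QA*+ cells. *EPX*+ cells had 1 UMI in organoid 32.7 and 0 in 33.10, and *MYB*+ cells had 2 and 9 UMIs.

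*KLF4* (ENSG00000136826, chromosome 9, 107484852 to 107490482, 5 exons) was found in *MPO*+, *C1QA*+ and *LYZ*+ *C1QA*- cells and had no UMI in *EPX*+ cells. *MPO*+ cells had 22.4 and 24.2 CPM, *C1QA*+ cells 22.1 and 17.7 and *LYZ*+ *C1QA*- cells 31.0 and 10.1. *EPX*+ cells had 0 UMIs in both organoids, which allows up to 1.26 CPM at a floor of 3 UMIs over the gate. The range of *LYZ*+ *C1QA*- cells spanned those of *MPO*+ and *C1QA*+ cells, which did not overlap. *MYB*+ cells had 2 and 1 UMIs.

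*MAF* (ENSG00000178573, chromosome 16, 79585843 to 79600737, 2 exons) was at 422 and 447 CPM in *C1QA*+ cells, the highest of all gates. *AFP*+ cells with 86.2 and 66.8 CPM and *CDH5*+ cells with 72.3 and 69.1 came next and overlapped. *LYZ*+ *C1QA*- cells had 39.4 and 48.9 CPM, *MPO*+ cells 16.5 and 14.8, and *EPX*+ cells only 3.57 and 2.06, on 5 and 2 UMIs. The gates next to *C1QA*+ cells in the order of *MAF* were thus endoderm and endothelium, not blood.

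**Figure D1:**
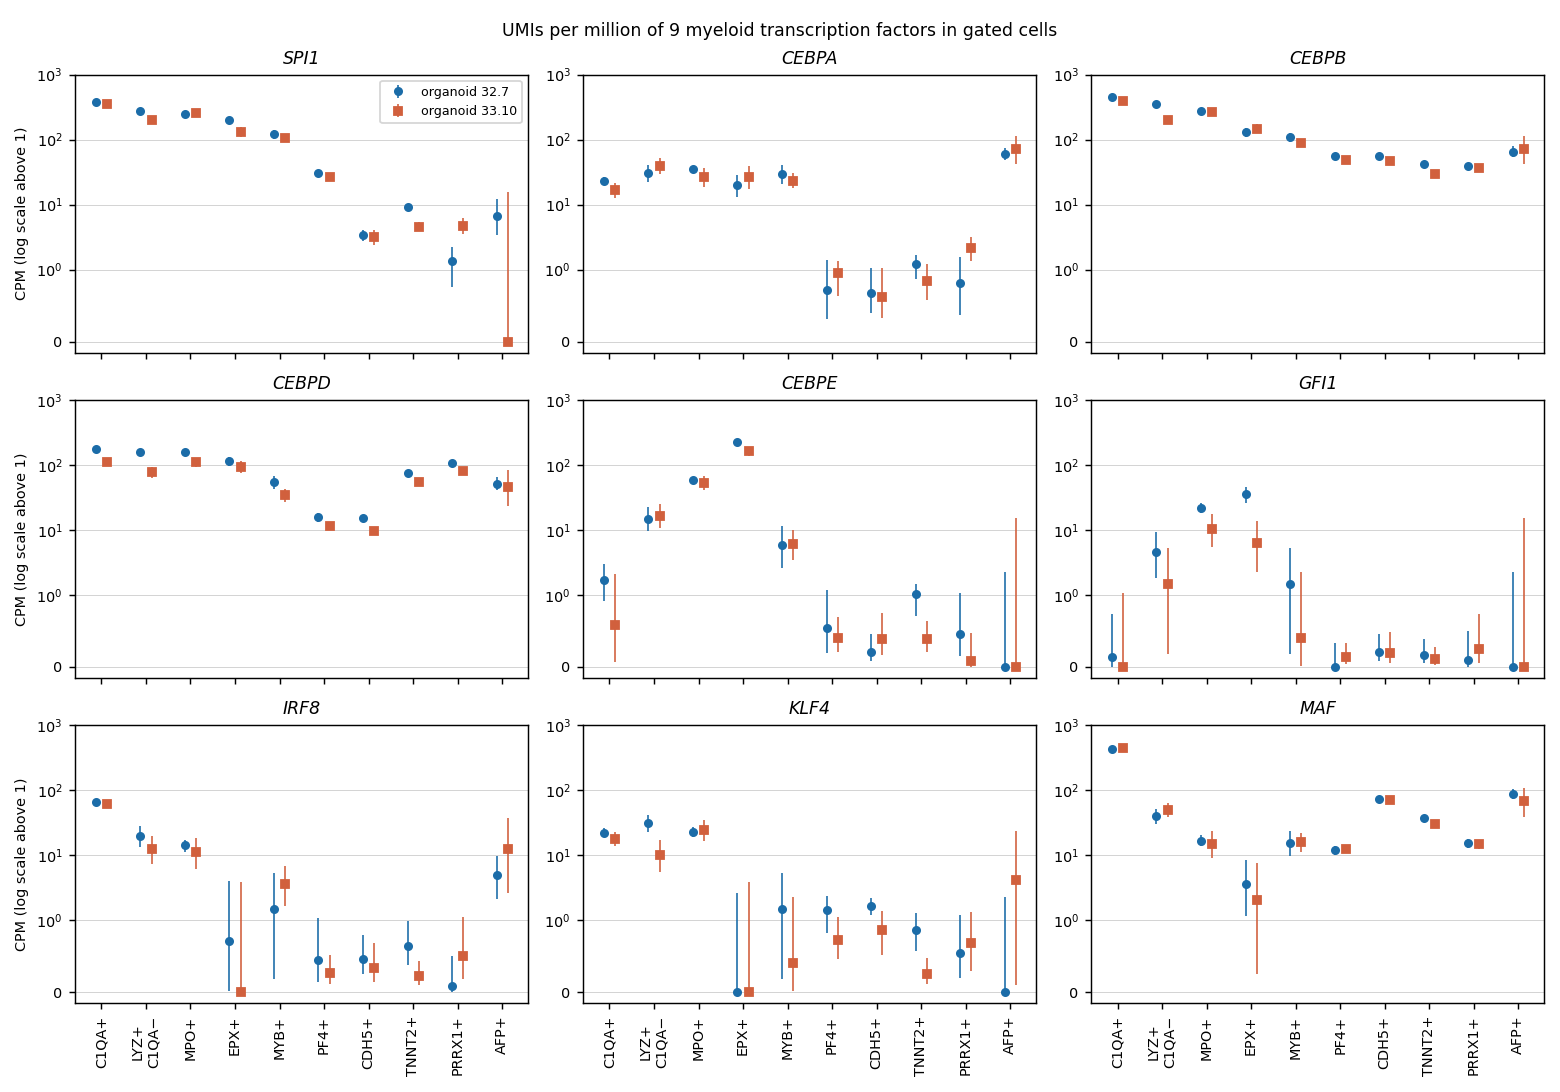
CPM of each member (y axis, logarithmic above 1 and linear below) in 10 gates (x axis), with 1 point for each organoid and exact 95% Poisson intervals, which cover counting error only. *SPI1* and *CEBPB* are highest in *C1QA*+ cells, *CEBPE* peaks in *EPX*+ cells at 219.7 and 160.5 CPM, *MAF* in *C1QA*+ cells at 422 and 447 CPM, and *KLF4* has 0 UMIs in *EPX*+ cells.

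Shares of cells showed the same gates when each cell was reduced to 3000 UMIs at random, which left out the shallower cells (27 and 10 of the *C1QA*+ cells, 61 and 0 of the *MPO*+ cells, 5 and 0 of the *EPX*+ cells). *MAF* had a UMI in 61.7% and 60.5% of thinned *C1QA*+ cells and in 5.30% and 1.61% of *MPO*+ cells. *CEBPE* had a UMI in 36.1% and 30.4% of *EPX*+ cells, in 12.5% and 12.9% of *MPO*+ cells and in none of the 407 and 177 *C1QA*+ cells. *SPI1* had a UMI in 65.1% and 67.8% of *C1QA*+ cells and in 2.44% and 1.23% of *TNNT2*+ cardiomyocyte cells, which should lack it. Before thinning these *SPI1* shares were 91.2% and 97.3% against 5.71% and 3.75%, at median depths of 15041 and 14685 UMIs in *C1QA*+ cells and 8171 and 10100 in *TNNT2*+ cells. *GFI1* and *KLF4* lay below 10% of thinned cells in every myeloid gate, so most cells of those gates had no UMI of them at this depth.

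**Figure D2:**
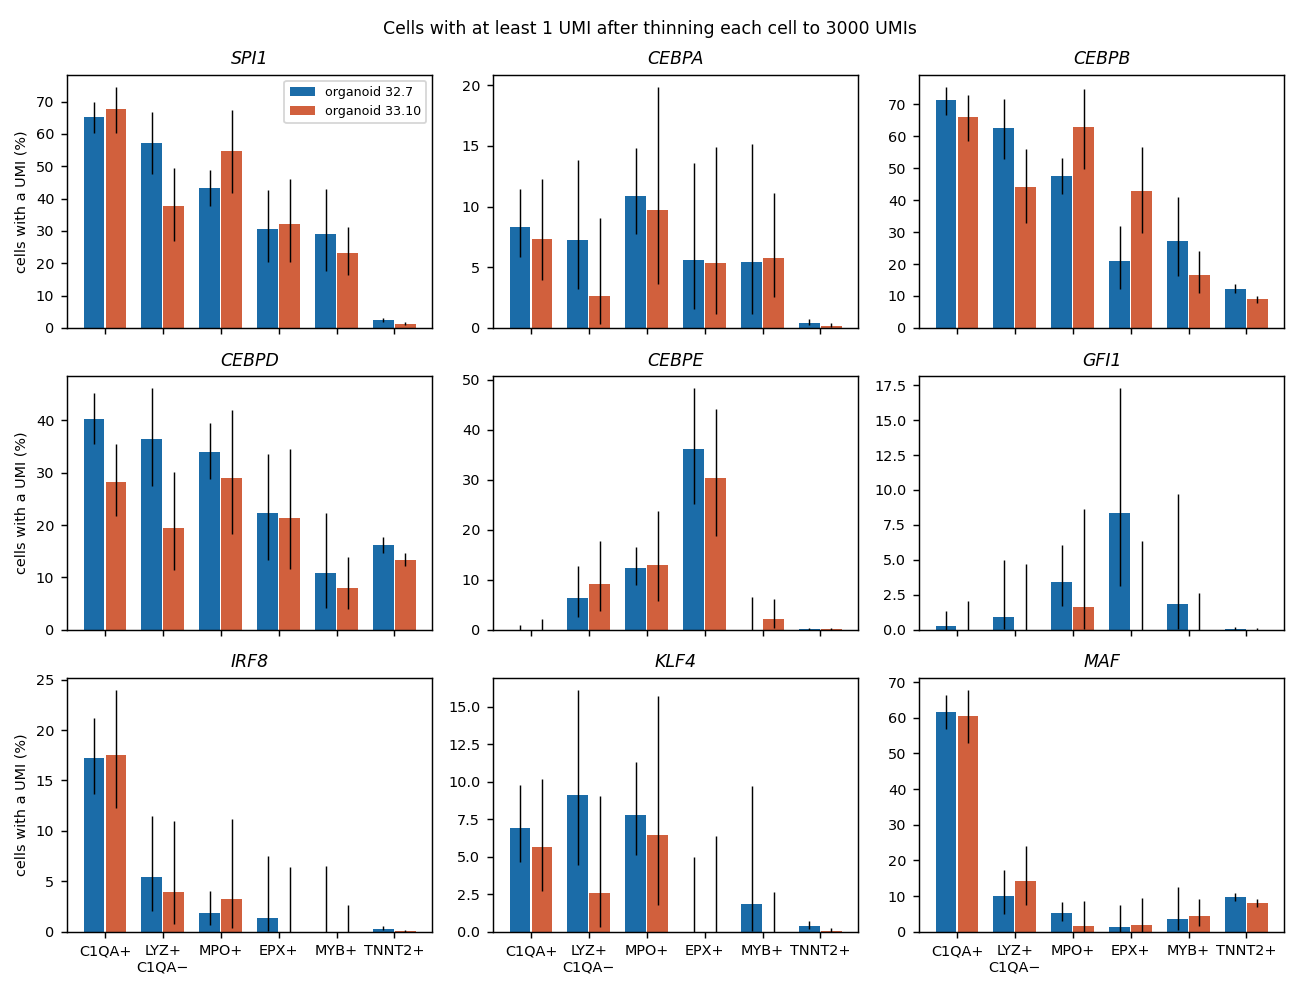
Percent of cells with at least 1 UMI of each member (y axis) after thinning to 3000 UMIs, in 5 myeloid and progenitor gates and in *TNNT2*+ cells (x axis), as bars for each organoid with exact 95% binomial intervals. *MAF* is found in 61.7% and 60.5% of *C1QA*+ cells, *CEBPE* in 36.1% and 30.4% of *EPX*+ cells, and *SPI1* in at most 2.44% of *TNNT2*+ cells.

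For the tests, the sums of all gates were fitted together in edgeR (quasi-likelihood F test), and p-values were adjusted over 19884 genes after Benjamini and Hochberg. All 9 members passed its filter on low counts in that fit, some of them only through the gate in which they are high. For these, a difference from that gate is partly built in. Members, lists and gates were also chosen with earlier results of these data known. Counts of called members beside the shares of all genes are therefore a description. *C1QA*+ cells were first compared with *MPO*+ cells to ask which factors separate the macrophage gate from the myeloperoxidase gate. Of the 9 members 4 changed, where 13% of all genes tested did; 2 were higher and 2 lower in *C1QA*+ cells, against 7.77% and 5.28% of all genes. *MAF* was higher in *C1QA*+ cells by a log2 fold change of 4.79 (SE 0.17, adjusted p = 4.0e-11) and *IRF8* by 2.31 (SE 0.35, adjusted p = 0.00023). *CEBPE* fell by 5.33 on the log2 scale (SE 0.41, adjusted p = 4.1e-07), and *GFI1* was 217-fold lower by its summed UMIs (1 against 149, 95% counting interval 38.4 to 8645, adjusted p = 8.8e-05). All 4 differed in the same direction in both organoids. *SPI1* differed by 0.55 (SE 0.31, adjusted p = 0.29), *CEBPA* by -0.59 (SE 0.30, adjusted p = 0.23), *CEBPD* by 0.12 (SE 0.38, adjusted p = 0.90) and *KLF4* by -0.16 (SE 0.46, adjusted p = 0.90), all short of the threshold. *CEBPB*, higher in *C1QA*+ cells by 0.70 (SE 0.24), missed it at an adjusted p of 0.065 and passed it with the organoid as a block (adjusted p = 0.0088; 0.00094 to 0.57 over 11 alternatives). With organoid 32.7 left out of the compared gates, *IRF8* and *GFI1* no longer passed (adjusted p = 0.062 for each).

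Immediate-early and heat shock genes respond to stress and to the dissociation of tissue. Of 11 such genes, all tested, 4 were higher in *C1QA*+ than in *MPO*+ cells and 0 lower (7.77% and 5.28% of all genes), among them *ZFP36* (log2 fold change 1.96, SE 0.27, edgeR, adjusted p = 9.7e-05). Their summed level was 492 CPM in *C1QA*+ cells of both organoids and 249 and 282 in *MPO*+ cells. In *MPO*+ over *MYB*+ cells, described below, 3 were higher and 0 lower, against 6.29% and 5.23% of all genes. These were *FOS* (2.74), *ZFP36* (1.23) and *JUNB* (1.03), and the list had 201 and 187 CPM in sum in *MYB*+ cells. In *C1QA*+ over *LYZ*+ *C1QA*- cells 3 were higher and 0 lower, against 4.09% and 2.48% of all genes (*FOS* by 1.51, *ZFP36* by 1.43 and *JUNB* by 1.04). Over *CDH5*+ cells 3 were higher and 3 lower, close to the 21.8% and 25.9% of all genes. In *EPX*+ over *MPO*+ cells 0 passed, against 3.65% of all genes. Their part in the levels of *CEBPB*, *CEBPD* and *KLF4* was not tested.

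*EPX*+ cells were compared with the same *MPO*+ cells, so both comparisons share the *MPO*+ sums. Again 4 of 9 members changed, against 3.65% of all genes tested, with 1 higher in *EPX*+ cells (1.49% of all genes) and 3 lower (2.16%). *CEBPE* was higher in *EPX*+ cells by a log2 fold change of 1.86 (SE 0.28, adjusted p = 0.0012), and *MAF* fell by 2.35 on the log2 scale (SE 0.33, adjusted p = 0.00077). *IRF8* was 32.0-fold lower by its UMIs (1 against 102, 95% counting interval 5.61 to 1276, adjusted p = 0.010). *KLF4*, with 0 UMIs against 172, was at least 18.0-fold lower at a floor of 3 UMIs over the gate (adjusted p = 0.0068). *EPX*+ cells therefore had more *CEBPE* and less *MAF*, *IRF8* and *KLF4* than *MPO*+ cells in these counts. *SPI1* differed by -0.51 (SE 0.33, adjusted p = 0.52), *CEBPA* by -0.37 (SE 0.35, adjusted p = 0.70), *CEBPD* by -0.32 (SE 0.41, adjusted p = 0.80) and *GFI1* by 0.42 (SE 0.54, adjusted p = 0.79). *CEBPB* differed by -0.88 (SE 0.26, adjusted p = 0.073) and passed with the organoid as a block (adjusted p = 0.012, against 3.7e-05 to 0.48 over 11 alternatives). Without organoid 32.7 in these gates none of the 4 called members passed (adjusted p of 0.078 for *MAF* to 0.22 for *IRF8*), and without organoid 33.10 *KLF4* (0.094) and *IRF8* (0.12) did not.

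The *GFI1* level of *EPX*+ cells rested on the cells that carried both peroxidases. In organoid 32.7 the 30 *EPX*+ *MPO*+ cells had 64.9 CPM of *GFI1* (95% counting interval 46.2 to 88.8), and the 47 *EPX*+ *MPO*- cells 12.5 (5.98 to 22.9). The 56 *EPX*+ cells of organoid 33.10, all *MPO*-, had 6.17 (2.27 to 13.4). Cells with both peroxidases had fewer eosinophil transcripts than *EPX*+ *MPO*- cells of the same organoid, with *PRG2* at 19197 against 43439 CPM and *CLC* at 4420 against 18755, and had *PRTN3* at 3494 against 62.4. *CEBPE* was at 180 CPM (148 to 217) in the former and 249.6 (216 to 287) in the latter. Whether the former are 1 cell state or droplets with more than 1 cell was not tested. They stem from 1 organoid, so no test between organoids was possible.

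*MPO*+ cells were compared with *MYB*+ cells. The 5 progenitor markers summed to 454 and 360 CPM in *MYB*+ cells and to 447 and 416 in *MPO*+ cells, but did not go together. *GATA2* and *SPN* had their highest means in *MYB*+ cells. *GATA2* was lower in *MPO*+ cells (log2 fold change -4.46, SE 0.57, edgeR, adjusted p = 0.00011). The other markers had their highest means outside both gates, and the list summed to 579 and 635 CPM in *C1QA*+ cells. The list thus does not order the gates by stage, and the comparison is between gates. *MYB*+ cells were also chosen below the thresholds for *LYZ*, *MPO*, *EPX* and *C1QA*, so lower levels of myeloid factors there may be partly built in. The size of that part was not tested. Of the 9 members 7 were higher in *MPO*+ cells and 0 lower, against 6.29% and 5.23% of all genes and 11.5% in either direction. *CEBPE* was higher by a log2 fold change of 3.28 (SE 0.39, adjusted p = 7.3e-05), *IRF8* by 2.26 (SE 0.56, adjusted p = 0.013) and *CEBPD* by 1.74 (SE 0.43, adjusted p = 0.014). *CEBPB* was higher by 1.51 (SE 0.26, adjusted p = 0.00097) and *SPI1* by 1.24 (SE 0.33, adjusted p = 0.020). *KLF4* was 29.2-fold higher by its UMIs (172 against 3, 95% counting interval 9.82 to 143, adjusted p = 0.0017) and *GFI1* 25.3-fold (149 against 3, 8.48 to 124, adjusted p = 0.0033). *CEBPA* (0.35, SE 0.32, adjusted p = 0.55) and *MAF* (0.10, SE 0.20, adjusted p = 0.83) did not pass. *MYB*+ cells also had globin and mast cell or basophil transcripts (*HBZ* at 666 and 1084 CPM, *HDC* at 85.4 and 215), and the part of these cells in the comparison was not tested. Without organoid 32.7 in these gates 3 of the 7 calls remained (*CEBPB*, *CEBPE* and *KLF4*, the others at adjusted p of 0.13 to 0.38), and without 33.10 only *CEBPE* did (adjusted p = 0.014, the others 0.062 to 0.28).

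*C1QA*+ cells, which were not selected on lysozyme, were compared with *LYZ*+ *C1QA*- cells. Here 3 of 9 members changed, against 6.57% of all genes, with 2 higher in *C1QA*+ cells (4.09% of all genes) and 1 lower (2.48%). *MAF* was higher in *C1QA*+ cells by a log2 fold change of 3.42 (SE 0.16, adjusted p = 2.7e-09) and *IRF8* by 2.10 (SE 0.37, adjusted p = 0.0022), and *CEBPE* fell by 3.41 on the log2 scale (SE 0.52, adjusted p = 0.00074). *CEBPB* differed by 0.73 (SE 0.24, adjusted p = 0.088, with the organoid as a block 0.010) and *GFI1*, with 1 UMI against 9, missed the threshold (adjusted p = 0.077, with the block 0.029). Neither *SPI1* (0.72, adjusted p = 0.21) nor *CEBPA* (-0.65, adjusted p = 0.27), *CEBPD* (0.42, adjusted p = 0.62) or *KLF4* (0.06, adjusted p = 0.99) passed. Without organoid 33.10 in these gates *IRF8* no longer passed (adjusted p = 0.086), and without 32.7 *CEBPB* did (adjusted p = 0.030).

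*C1QA*+ cells were compared with endothelial *CDH5*+ cells as a non-blood lineage. In this comparison 8 of 9 members were higher in *C1QA*+ cells, where 21.8% of all genes were higher, 25.9% lower and 47.7% changed. The differences ran from 2.35 for *CEBPE* (SE 0.68, adjusted p = 0.0089) and 2.78 for *MAF* (SE 0.14, adjusted p = 2.6e-10) to 6.96 for *SPI1* (SE 0.41, adjusted p = 1.1e-09) and 7.41 for *IRF8* (SE 0.42, adjusted p = 9.2e-10) on the log2 scale. *CEBPB* (3.24), *CEBPD* (3.71), *KLF4* (4.14) and *CEBPA* (5.12) lay between these. The *CEBPE* value rested on 15 UMIs among 11047409 in *C1QA*+ cells and 14 among 49256753 in *CDH5*+ cells, both organoids together. In *C1QA*+ cells of organoid 33.10 it had 2 UMIs, below the floor of 3. *GFI1*, with 1 UMI against 10, did not pass (adjusted p = 0.71). The *CEBPE* difference was lost without organoid 32.7 in these gates (adjusted p = 0.72).

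**Figure D3:**
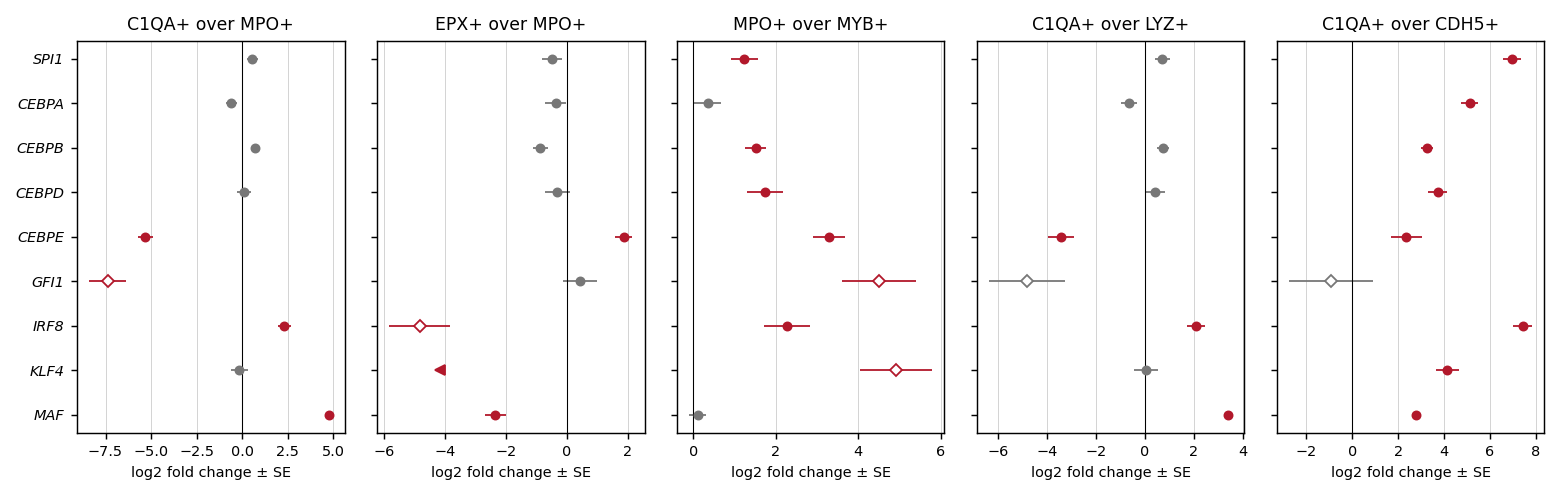
Log2 fold change with its standard error (x axis) of the members (y axis) in 5 comparisons of gates, red where the adjusted p of edgeR's quasi-likelihood test is under 0.05 and grey elsewhere. Open diamonds mark fits with 1 to 3 UMIs in the lower gate, and the triangle gives *KLF4* in *EPX*+ cells at its bound of 18.0-fold. *MAF* and *CEBPE* move in opposite directions in *C1QA*+ over *MPO*+ cells (4.79 and -5.33).

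Bands of the gate gene were used to follow the members within a gate, with 9 UMIs or fewer, 10 to 29, and 30 or more UMIs as low, middle and high. Cells of a higher band were also deeper (a median of 4351 UMIs in the low and 25901 in the high band of *MPO*+ cells in organoid 32.7), and CPM does not remove an effect of depth on who enters a band. In *MPO*+ cells *GFI1* was at 7.25 CPM in the low, 12.7 in the middle and 28.0 in the high band of organoid 32.7, and at 0, 0 and 14.5 in 33.10. *CEBPE* was at 27.4, 78.2 and 62.4 CPM in organoid 32.7 and at 4.998, 26.9 and 69.2 in 33.10. *MAF* went the other way, with 26.6, 22.2 and 12.2 CPM and with 35.0, 32.2 and 6.70, and *KLF4* was at 29.8, 37.0 and 16.8 CPM and at 35.0, 43.0 and 17.9, with its highest level in the middle band. Both organoids thus had more *CEBPE* and less *MAF* and *KLF4* in the high than in the low band. The low band of organoid 33.10 had only 1 UMI of *CEBPE* and 7 each of *MAF* and *KLF4*. *GFI1* was higher in the high band of organoid 32.7. In 33.10 its 0 UMIs in the low band allow, at a floor of 3 UMIs, a level not below the 14.5 CPM of the high band. The low and middle bands of organoid 33.10 held 14 and 12 *MPO*+ cells, too few for the minimum of 20, so these differences were not tested. In *EPX*+ cells *CEBPE* was at 110 CPM in the low, 234 in the middle and 293 in the high band of organoid 32.7. In 33.10 it was at 89.8, 199.0 and 256 CPM, again without a test. These bands held 27, 23 and 27 cells in organoid 32.7 and 36, 12 and 8 in 33.10. *GFI1* went the other way in organoid 32.7, with 52.9, 34.9 and 21.2 CPM, and had only 2, 3 and 1 UMIs in 33.10.

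**Figure D4:**
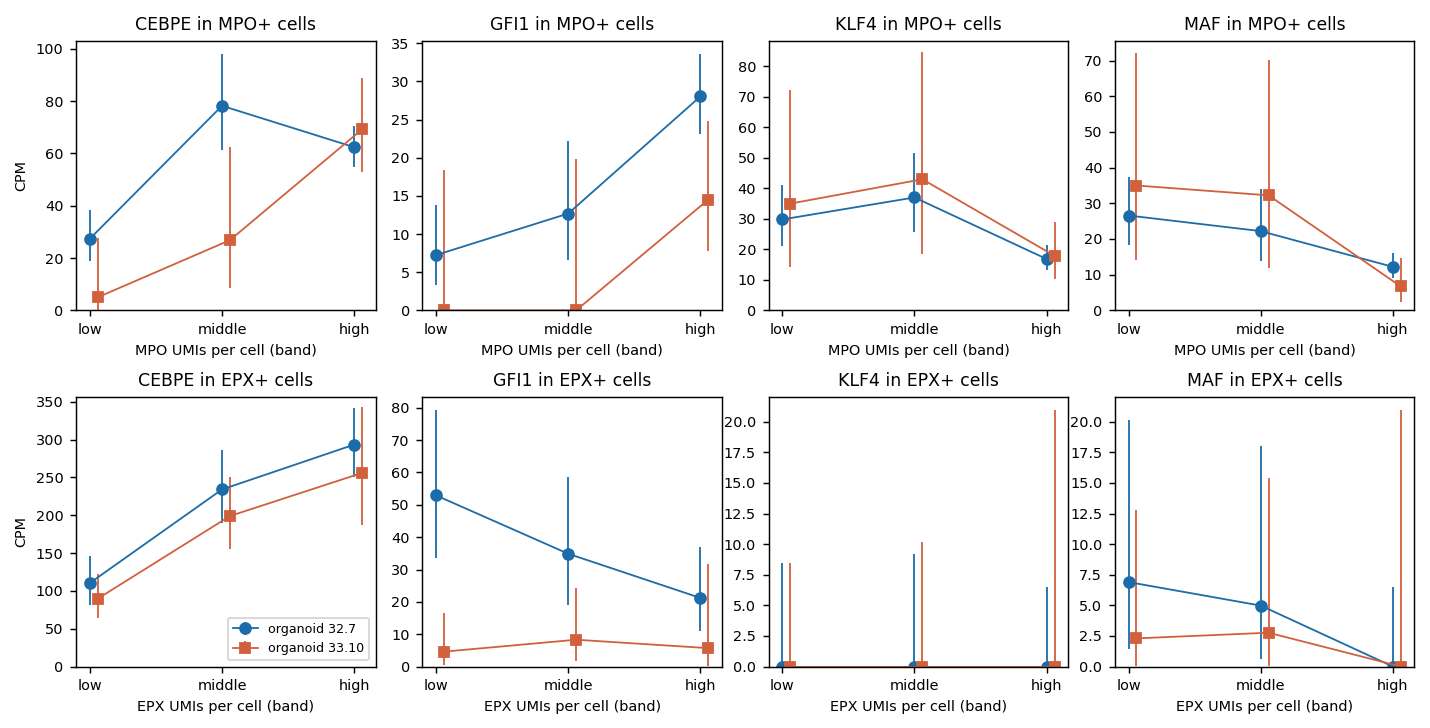
CPM of *CEBPE*, *GFI1*, *KLF4* and *MAF* (y axis, starting at 0 and scaled for each panel) in the low, middle and high band of *MPO* UMIs (upper row) or *EPX* UMIs (lower row), with 1 line for each organoid and exact 95% Poisson intervals for counting error only. *CEBPE* reaches 293 and 256 CPM in the high *EPX* band (27 and 8 cells), and *MAF* is at 12.2 and 6.70 CPM in the high *MPO* band.

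In *C1QA*+ cells the high band held 16 cells in organoid 33.10, so the middle band was compared with the low one. None of the 9 members passed the test in edgeR, and 0% of the 11948 genes tested did (174 had an unadjusted p under 0.05, and DESeq2 called 0, with 72 at an unadjusted p under 0.05). *IRF8* was at 43.7 CPM in the low and 63.2 in the middle band of organoid 32.7 and at 47.7 and 71.9 in 33.10, a log2 fold change of 0.55 (SE 0.24, adjusted p = 1). *MAF* was at 302 and 435 CPM in organoid 32.7 and at 515 and 399 in 33.10, in opposite directions.

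Other transcription factors of myeloid cells were taken as a list of 28 genes, of which 26 were tested. In *C1QA*+ over *MPO*+ cells 8 of them were higher and 1 lower (7.77% and 5.28% of all genes), with a median log2 fold change of 0.33 against 0.00 for all genes. *IRF5*, a factor of inflammatory macrophage genes, was higher by 2.29 (SE 0.58, edgeR, adjusted p = 0.014) and *RUNX3* by 2.05 (SE 0.39, adjusted p = 0.0017), and *RUNX1*, a factor of blood progenitors, was lower (-0.83). In *EPX*+ over *MPO*+ cells 3 were higher and 3 lower (1.49% and 2.16% of all genes, median -0.42 against -0.06). The higher ones were *GATA1* (4.33), *GATA2* (4.15) and *MITF* (2.61), factors of the eosinophil, mast cell and erythroid lineages, and the lower ones *TFEC* (-2.96), *PPARG* (-2.73) and *ID2* (-1.11). *GATA2* was at 74.9 and 110 CPM in *EPX*+ cells and at 6.996 and 0 in *MPO*+ cells. In *MPO*+ over *MYB*+ cells 4 were higher and 6 lower (6.29% and 5.23% of all genes, median 0.30 against 0), led by *BATF3* (3.89) and *GATA1* (-4.82). In *C1QA*+ over *LYZ*+ *C1QA*- cells 6 were higher and 3 lower (4.09% and 2.48% of all genes), and over *CDH5*+ cells 14 and 4 (21.8% and 25.9%).

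Granule and receptor genes that myeloid factors are known to control formed a list of 16, all tested. The shares of all genes given for each comparison above are the background here too. Several of them, among them *PRTN3*, *ELANE*, *CTSG*, *CSF1R* and *PRG2*, are also in the marker lists of the gates. Calls of these genes therefore describe the gates again. In *C1QA*+ over *MPO*+ cells 2 were higher, the macrophage receptor *CSF1R* (log2 fold change 2.98, edgeR, adjusted p = 0.00013) and *FCGR1A* (2.97), and 8 were lower, among them *PRTN3* and *ELANE*. In *EPX*+ over *MPO*+ cells *PRG2* (6.92) was higher and *CYBB*, a subunit of the phagocyte oxidase, lower (-2.89). In *MPO*+ over *MYB*+ cells 9 were higher and 1, *PRG2*, lower. In *C1QA*+ over *LYZ*+ *C1QA*- cells 2 were higher and 2 lower (4.09% and 2.48% of all genes), and over *CDH5*+ cells 9 and 0 (21.8% and 25.9%). Of 6 cell cycle genes all were higher in *C1QA*+ than in *CDH5*+ cells, with a median log2 fold change of 2.75 and *MKI67* at 3.76 (edgeR, adjusted p = 3.5e-09). *TOP2A* alone was higher over *LYZ*+ *C1QA*- cells (0.75), and *MCM2* alone was lower than in *MPO*+ cells (-0.68). The other 2 comparisons had 0 calls. *MKI67* was at 190 and 202 CPM in *C1QA*+ and 180 and 225 in *MPO*+ cells.

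Genes with the most similar pattern were sought by Pearson's r of log2(CPM + 5) over the 22 sums of 11 gates and 2 organoids, among the 19884 genes tested. The sums of 1 organoid share a library, so r is a description and has no test. *CEBPE* was closest to *ALAS1* (r = 0.96) and *MS4A3* (0.95), *GFI1* to *CEACAM8* (0.95), *BPI* (0.94) and *SERPINB10* (0.93), and among the members these 2 factors were most alike (0.91). *SPI1* was closest to *CORO1A*, *APOBR* and *ARHGAP9* (0.98 each), *CEBPB* to *EFHD2* and *ITGB2* (0.98 each), and *KLF4* to *LSP1*, *LTB4R* and *CYP1B1* (0.97 each). *IRF8* was closest to *RBPJ* (0.96), *OGFRL1* and *CACNA2D4* (0.95 each), *MAF* to *MERTK* (0.90), *CRYL1* and *CYP2S1* (0.89 each), *CEBPA* to *HSD17B11* (0.96), *SCARB1* (0.91) and *C1RL* (0.89), and *CEBPD* to *LITAF* (0.94), *GAS7* (0.90) and *POLE4* (0.89).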

How the data were processed

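The deposited counts are whole-number UMI counts per gene and barcode, which the authors made with Cell Ranger 7.0.0 on GRCh38 with intronic reads. They precede the removal of free RNA and the equalization of depth described in the study. Barcodes outside 50 to 11000 genes or at 30% mitochondrial UMIs and above were dropped, and the rest was gated on raw UMIs; gates at *PF4* and *AFP* took 10 UMIs, *TNNT2* 5, *CDH5* 3 and *PRRX1* 2. One further gate entered the fit, and it and some named genes are not reported here. Doublets were kept in the main values. Counts were summed per gate and organoid (at least 20 cells) and tested with edgeR 4.0.16 (R 4.3.3; TMM, filterByExpr, quasi-likelihood, Benjamini-Hochberg, threshold 0.05), all gates in 1 fit. The test was also run on simulated counts for *C1QA*+ over *MPO*+ and *EPX*+ over *MPO*+ cells only, and the outcome is not given here. A standard error is the fold change divided by the square root of F. Members, lists and gates were chosen with earlier results of these data known. Named genes are the members, the gate genes, markers, up to 3 genes per list and direction with the largest change, and 3 similar genes per member. Positions come from GENCODE 44. Alternatives were DESeq2 1.42.0, other filters, gates and doublet or free RNA removal, the organoid as a block, and 1 organoid left out. The same organoid gives the same replicate number, so numbers pair the sums (correlations of deviations -0.04 to 0.38, median 0.08).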

Additional observations from a re-analysis of the deposited data

Results flagged for a closer look

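*CEBPA* in *AFP*+ cells lies outside all tested comparisons, because organoid 33.10 had only 15 such cells. It was at 59.9 CPM in organoid 32.7 and 71.0 in organoid 33.10 (95% counting intervals 48.7 to 73.0 and 41.3 to 114), above the limits of 1.83 and 12.5 CPM that a count of 0 allows at a floor of 3 UMIs, and was singled out because the signal appears in cells that no comparison used. Chosen after its values were seen, it is given as a value only.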

How the results depend on the processing

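Of 432 values of members under settings that kept both organoids, 410 stayed on their side of the threshold with their direction, 19 newly passed, 1 no longer passed (*SPI1* in *MPO*+ over *MYB*+ cells with 10% of free RNA removed, edgeR, adjusted p = 0.18, against 1.6e-10 to 0.28 over 11 alternatives) and 2 reversed. The reversed ones are *GFI1* in *EPX*+ over *MPO*+ cells with the *EPX*+ *MPO*+ cells left out (-0.87) and *KLF4* in *C1QA*+ over *LYZ*+ *C1QA*- cells with doubled thresholds (-0.50); with all cells neither had passed. The organoid as a replicate block newly passed *CEBPB* in 3 comparisons and *GFI1* in 1 and changed no other call of a member. It gave 3344, 969, 2648, 1791 and 10249 calls in the 5 gate comparisons, in the order *C1QA*+ over *MPO*+, *EPX*+ over *MPO*+, *MPO*+ over *MYB*+, *C1QA*+ over *LYZ*+ *C1QA*- and *C1QA*+ over *CDH5*+, against 2594, 726, 2290, 1306 and 9489 without it, and 0 for the *C1QA* bands, as without it.

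With 1 organoid left out of the compared gates, the lone sum is taken to vary like the other gates. Calls then ranged from 591 to 1285, 159 to 227, 594 to 705, 320 to 754 and 5946 to 6818 in the same order, and 0 for the bands. Of 108 member values 80 kept their call and direction, 20 no longer passed, 1 newly passed and 7 reversed, all 7 short of the threshold with both organoids. Their one-organoid values were -0.46 and 0.063 for *KLF4* in *C1QA*+ over *MPO*+, 0.95 and -0.36 for *KLF4* in *C1QA*+ over *LYZ*+ *C1QA*-, 0.071 and -0.75 for *CEBPA* and -0.66 and 0.74 for *GFI1* in *EPX*+ over *MPO*+, -0.035 and 0.20 for *MAF* in *MPO*+ over *MYB*+, and 0.43 and -0.34 for *CEBPA* and -0.36 and 0.49 for *MAF* between the bands, without organoid 32.7 first and without 33.10 second. Without the filter on low counts the calls were 1353 for *EPX*+ over *MPO*+, 2093 for *C1QA*+ over *LYZ*+ *C1QA*- and 45 for the bands, where 32464 and 24475 genes were tested; the cause was not tested. Of the 99 pairs of members and gates, 44 had a UMI in at least 5% of cells thinned to 3000 UMIs and 39 at 2000. The *TNNT2* threshold of 20 was chosen after seeing the data. The *MPO* bands and *AFP*+ cells were not tested because of the minimum of 20 cells. Depth limits the zeros of *KLF4*, *IRF8* and *GFI1*.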
